A study of Homo sapiens with 22 samples.

Results

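The sites described here are places where N-MYC peaks were listed after treatment with a small compound and not after DMSO. They were chosen by the peak lists themselves: N-MYC peaks of compound libraries 1 and 3 were merged where they shared at least 1 bp, regions hit by both libraries were kept, and any region that overlapped an N-MYC peak of a DMSO library was dropped. Of 8217 regions listed by both compound libraries, 102 (1.24%) were left, and the other 8115 overlapped a peak in at least 1 of the 3 DMSO lists. In all, the 16 peak lists of the series hold 94408 peaks. The same rule run the other way, on DMSO libraries 1 and 3 against every compound list, kept 591 of 9713 regions (6.08%). Both counts are fixed by the rule and by how many peaks each list holds, so nothing is read from them.

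N-MYC is a basic helix-loop-helix leucine zipper transcription factor that binds DNA as a dimer with MAX, with a preference for the E-box CACGTG, and amplification of its gene, MYCN, marks an aggressive form of neuroblastoma. At high levels MYC proteins occupy most active promoters and also many distal elements. WDR5, a WD40-repeat protein of the MLL/SET1 histone methyltransferase complexes, binds MYC proteins directly and sits at the promoters of a set of genes rich in ribosomal protein genes. Other basic helix-loop-helix factors of the neural lineage prefer the E-boxes CAGCTG and CAGATG.

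ChIP-seq was done in CHP-134 and IMR-32, human neuroblastoma cell lines that carry amplified MYCN. CHP-134 cells received DMSO or the compound for 4 h, with 3 libraries for N-MYC and 3 for WDR5 in each arm, and IMR-32 cells were untreated, with 2 libraries for each protein. N-MYC was precipitated with a custom serum and WDR5 with a commercial antibody, and each library pooled 3 immunoprecipitations. Titles, agent field and treatment text give this agent unlike names, so no name is used for it, and its dose is not given in the sources used here. The study's methods describe its ChIP-seq as independent repeats, but the labels tie no library to a culture. The p-values for WDR5 measure the spread between these libraries. Those of the tests of sequence motifs are over sites, which are not replicates.

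The lists differed in length before any site was chosen. CHP-134 N-MYC lists held 15286, 9125 and 12283 peaks under DMSO and 11249, 2964 and 12313 under the compound. The second compound N-MYC library therefore stood apart, and so did the second compound WDR5 library, which listed 15 peaks where the other 2 listed 5973 and 401. The lists give no read counts, so the depth of each library is unknown, and a region missing from a list was not called there, which does not show that the protein was absent. As a check of the cell type, N-MYC peaks lay within 1 kb of a transcription start site (TSS) of all 5 genes of the adrenergic neuroblastoma state looked at here (PHOX2A, HAND2, GATA2, GATA3 and ISL1) in DMSO list 1, of 2 of them in DMSO list 2 and of 3 in DMSO list 3, and of 3, 0 and 3 in the compound lists. They come from a list of 20 such genes, of which 35.0% had a region shared by both treatments. None of the 5 had a compound-only site.

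Sequence around the summit was not used by the rule, and the E-box of N-MYC was looked for first. CACGTG, read on both strands within 100 bp of the summit, was present at 19 of 102 sites (18.6%, exact 95% Clopper-Pearson interval 11.6 to 27.6%), against 3 of the windows of the same size 2 kb to the left and 1 of those 2 kb to the right. Shown next, on the plus strand of hg19 (GRCh37), are 66-bp windows centred on the E-box nearest the summit for the 10 highest-ranked sites that hold one, with that copy of CACGTG in capitals.
TANC1 (chr2:159867098-159867163): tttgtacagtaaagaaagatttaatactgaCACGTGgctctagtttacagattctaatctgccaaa
OPCML-IT2 (chr11:132700280-132700345): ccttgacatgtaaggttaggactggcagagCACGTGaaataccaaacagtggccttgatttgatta
CDCA7 (chr2:174277531-174277596): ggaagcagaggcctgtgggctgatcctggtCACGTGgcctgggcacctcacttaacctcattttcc
IKZF5 (chr10:124767467-124767532): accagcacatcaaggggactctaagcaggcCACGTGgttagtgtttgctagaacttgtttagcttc
OLFM4 (chr13:53543782-53543847): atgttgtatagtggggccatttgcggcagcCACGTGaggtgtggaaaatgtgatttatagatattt
ENSG00000289577 (chr20:59738950-59739015): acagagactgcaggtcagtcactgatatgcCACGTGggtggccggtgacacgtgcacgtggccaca
IFTAP (chr11:36701842-36701907): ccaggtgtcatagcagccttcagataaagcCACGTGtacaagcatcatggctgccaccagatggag
ENSG00000254864 (chr11:7576392-7576457): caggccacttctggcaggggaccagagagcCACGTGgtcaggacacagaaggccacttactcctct
ENSG00000286748 (chr2:239680040-239680105): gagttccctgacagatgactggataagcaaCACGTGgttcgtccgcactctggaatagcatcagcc
ORC4 (chr2:148778333-148778398): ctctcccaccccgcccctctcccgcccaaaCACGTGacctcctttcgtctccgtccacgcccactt

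Across the 19 sites the nearest CACGTG lay a median of 20 bp from the summit and at 16 of them within 50 bp. The site of ENSG00000289577, a long noncoding RNA gene, held 3 copies, 2 of which are in lower case in the window above. Of the 10 strongest compound-only sites 2 held CACGTG, against 18.6% of all 102. These 2 were nearest TANC1, a postsynaptic scaffold gene, and OPCML-IT2, a transcript within the cell adhesion gene OPCML. Sites within 1 kb of a TSS held CACGTG at 6 of 34 (17.6%, interval 6.76 to 34.5%) and the sites farther away at 13 of 68 (19.1%, 10.6 to 30.5%). Among regions shared with DMSO, CACGTG was present at 33.0%, and among DMSO-only sites at 17.8%. By position, shared regions held it at 30.9% within 1 kb of a TSS and at 37.6% farther away. DMSO-only sites held it at 10.7% (interval 7.69 to 14.3%) and 29.3% (23.5 to 35.8%). The intervals of compound-only and DMSO-only sites overlap in both classes.

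The 5 highest-ranked compound-only sites all lacked CACGTG, and their windows are shown next. They are the 61 bp around the summit on the plus strand of hg19, with copies of the E-box CACATG, the E-box CAGCTG and the E-box CAGATG, read on either strand, in capitals.
TCF12 (chr15:57545484-57545544): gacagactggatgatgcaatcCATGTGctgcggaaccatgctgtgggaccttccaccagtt
MAST4-IT1 (chr5:65957083-65957143): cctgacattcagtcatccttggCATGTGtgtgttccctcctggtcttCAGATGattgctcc
ENSG00000277801 (chr14:89657680-89657740): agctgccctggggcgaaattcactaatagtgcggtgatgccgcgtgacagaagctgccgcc
ATG10-AS1 (chr5:81460957-81461017): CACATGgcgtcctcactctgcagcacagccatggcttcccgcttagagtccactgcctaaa
LINC00331 (chr13:79353898-79353958): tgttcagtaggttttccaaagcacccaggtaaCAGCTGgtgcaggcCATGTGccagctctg

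The window of ENSG00000277801 held none of them, and that of ATG10-AS1 held 1 at its end. Over all sites, those other E-boxes were frequent at the compound-only summits. CAGATG was found at 33 of 102 sites (32.4%, interval 23.4 to 42.3%), against 11 and 16 of the windows 2 kb to the left and to the right, and CAGCTG at 26 sites (25.5%, 17.4 to 35.1%), against 8 and 6. Of the regions shared with DMSO 14.1% held CAGATG and 15.5% held CAGCTG. Together 59 of the 102 sites (57.8%, interval 47.7 to 67.6%) held 1 or both of these or CACGTG, against 19.6% and 22.5% of the distant windows, 51.0% of shared regions and 41.6% of DMSO-only sites (37.6 to 45.7%). These hexamers cannot occupy the same position, although neighbouring copies may overlap by a few bases. CACATG was left out of the joint share, which was not split by distance from a TSS. The sets differed there, with 33.3% of compound-only sites, 69.7% of shared regions and 61.9% of DMSO-only sites within 1 kb of a TSS. The part of position in the joint share was not tested.

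Position went along with these shares. Among sites farther than 1 kb from a TSS, CAGATG was held by 28 of 68 compound-only sites (41.2%, interval 29.4 to 53.8%), 30.5% of shared regions and 26.7% of DMSO-only sites, and the interval includes the shared value and overlaps that of the DMSO-only sites (21.0 to 33.0%). For CAGCTG in the same class the shares were 27.9% (17.7 to 40.1%), 23.9% and 25.3%, which the interval cannot tell apart. CACATG was held by 36.8%, 35.1% and 36.0% of the far sites of the 3 sets.

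In all, 10 short motifs were compared between the summit window and the 2 distant windows of each site by an exact two-sided binomial test on the sites where only 1 of the 2 windows held the motif, with Benjamini-Hochberg adjustment over all 20 tests. By this exact test CACGTG passed on both sides (adjusted p = 0.0016 to the left and 0.00015 to the right), as did CAGCTG (0.0016 and 0.0016), CAGATG (0.0011 and 0.029) and CACGCG (11 sites, adjusted p = 0.029 and 0.0033). CACATG, at 27 sites, missed the threshold on both sides (0.053 and 0.13), and so did the E-box CATATG, the AP-1 motif TGANTCA, the GATA motif AGATAA, the homeobox motif TAATTA and the CCAAT box. The summit windows were richer in GC (median 55.7%) than the distant ones (45.3% and 42.8%). The part of GC content in these motif differences was not tested. The tests set each summit against its own surroundings, so a motif that passed is not thereby particular to compound-only sites. CACGTG was commoner at summits than 2 kb away in shared regions too (33.0% against 2.35%) and in DMSO-only sites (17.8% against 3.21%). The same direction held in both sets for CAGCTG and CACGCG. For CAGATG the shares over all positions differed little in both sets (14.4% against 13.7% in DMSO-only sites). Both sets held it at a smaller share of summits within 1 kb of a TSS than farther away. Farther away the shares were 30.5% in shared regions and 26.7% in DMSO-only sites. The windows 2 kb away were not split by position. The CAGATG result is therefore not shown to be particular to compound-only sites.

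The compound-only sites were weak peaks of both lists. Strength is given as the authors' fold, the ratio of signal over local background, and as its percentile within a list, where 100 is the strongest peak. These values helped to select the sites through the peak threshold and are given as a description. The median fold was 4.21 in list 1 (range 1.65 to 7.37) and 4.30 in list 3 (1.56 to 9.47), against 5.24 and 5.83 for regions shared with DMSO. DMSO-only sites were as weak in their own 2 lists (4.21 and 4.23), and so were regions held by 1 DMSO list in the compound lists (4.29 and 4.34). The median percentile was 33.4 in list 1 and 28.7 in list 3. Only 14 sites lay above the median of both lists and 1 above the 75th percentile of both, the site in TCF12. The regions had a median width of 446 bp (330 to 1110), and the summits of the 2 libraries lay a median of 67.5 bp apart.

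**Figure D1:**
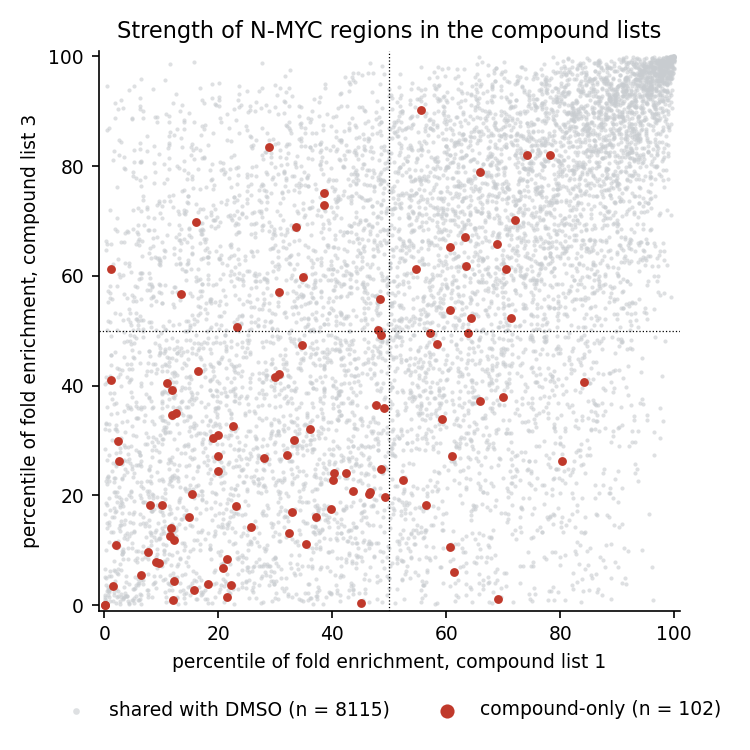
Percentile of fold enrichment in compound list 1 (x axis) and compound list 3 (y axis) for the 102 compound-only sites (red) and the 8115 regions shared with DMSO (grey), 1 point per region, with dotted lines at the 50th percentile. Red points gather in the lower left and only 14 are above both lines, while the grey points are densest in the upper right corner.

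The rule has an edge on the DMSO side. The nearest DMSO N-MYC peak was a median of 23892 bp away (77 to 1311710 bp), and 10 sites had one within 500 bp. Just inside were the sites nearest ENSG00000259058, with a DMSO peak of list 1 at a gap of 77 bp, ACTN1, which encodes the actin crosslinker alpha-actinin and had a peak of list 3 at 130 bp, and DUSP10, a MAP kinase phosphatase gene with a peak of list 1 at 173 bp. Just outside were a region 532 bp from a TSS of PPIG, which shared 9 bp with a peak of DMSO list 3 and had folds of 5.69 and 4.03 in the compound lists, and a region near MIB1, which shared 43 bp with a peak of DMSO list 1 and had folds of 4.04 and 5.53. The windows below, 61 bp around the summits of 2 sites just inside, are drawn as above.
ENSG00000259058 (chr14:77387069-77387129): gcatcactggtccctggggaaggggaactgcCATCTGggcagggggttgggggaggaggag
DUSP10 (chr1:221916095-221916155): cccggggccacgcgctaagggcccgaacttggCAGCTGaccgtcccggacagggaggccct

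Of the 102 compound-only sites, most were away from promoters. A TSS of a protein-coding or long noncoding RNA gene lay within 1 kb of the middle of 34 of 102 sites (33.3%, interval 24.3 to 43.4%), against 69.7% of regions shared with DMSO (68.7 to 70.7%) and 61.9% of DMSO-only sites (57.9 to 65.9%). Without DMSO library 1, whose list was the longest, the rule's sites were at promoters in 50.6%. In the main set, 43 sites (42.2%, 32.4 to 52.3%) were farther than 10 kb from any TSS, against 18.2% of shared regions and 24.9% of DMSO-only sites. By annotation the middle of the site was in an intron at 60 sites, between genes at 27, in a UTR or noncoding exon of a protein-coding gene at 7, in an exon of a long noncoding RNA gene at 5 and in a coding exon at 3. Chromosome 11 held the most sites, 12, and the share of all listed regions on it was not counted. Only 1 pair of neighbours lay within 100 kb, both in CPLX2, the gene of complexin 2, a regulator of synaptic vesicle fusion. These intervals cover counting error over sites only, and sites of 1 library are not replicates.

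The share at promoters was lower in the bands of stronger compound-only sites, and no such order was seen among shared regions. By bands of the mean percentile of the 2 lists, 16 of 37 compound-only sites below the 25th percentile were within 1 kb of a TSS (43.2%, interval 27.1 to 60.5%), 14 of 39 between the 25th and the 50th (35.9%, 21.2 to 52.8%) and 4 of 24 between the 50th and the 75th (16.7%, 4.74 to 37.4%). The intervals of the 3 bands overlap. Shared regions in the same bands gave 64.1%, 67.5% and 71.4%. Median GC content of the summit windows was 57.7%, 57.2% and 49.3% for the compound-only sites and 65.2%, 65.7% and 66.2% for the shared regions. Bands of fold did not make the sets equal in strength: the median percentile of −log10 q was 13.9, 26.2 and 46.7 for compound-only sites and 22.8, 41.3 and 64.4 for shared regions, and its part in the promoter shares was not tested.

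**Figure D2:**
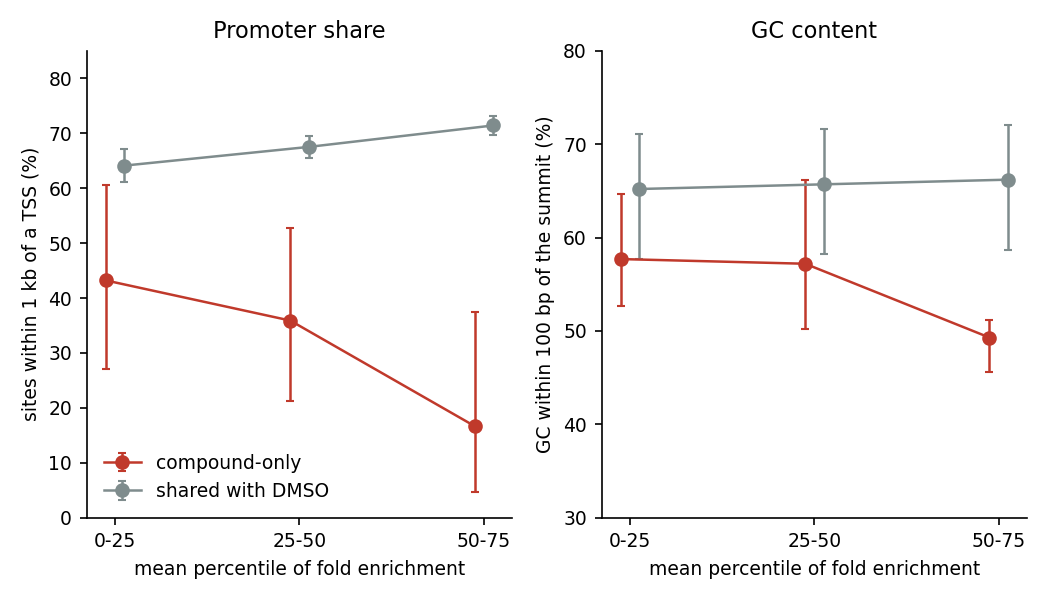
Left, share of sites within 1 kb of a TSS (%) with exact 95% intervals; right, median GC content within 100 bp of the summit (%) with the interquartile range as bars; both by mean percentile of fold enrichment in the 2 compound lists. Compound-only sites (red, n = 37, 39 and 24) go from 43.2% to 16.7% at promoters, and shared regions (grey) stay between 64.1% and 71.4%; the 2 compound-only sites above the 75th percentile are not drawn.

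Away from promoters, the strongest site was in a coding exon of TCF12, which encodes an E-protein that pairs with other basic helix-loop-helix factors. Its folds were 6.64 in compound list 1 and 7.74 in compound list 3 (−log10 q of 10.2 and 12.8), the summits of the 2 libraries were 12 bp apart, and the nearest DMSO peak was 52753 bp away. The site next in rank, 1057 bp upstream of MAST4-IT1 and inside an intron of the kinase gene MAST4, had folds of 6.28 and 7.74 with summits at the same base. In the third, in an intron of FOXN3, a forkhead repressor gene, the fold was 5.11 in list 1 and 9.47 in list 3, the highest value of any compound-only site in list 3. The first 2 of these ranked alike in both lists and the last did not.

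The other sites of this group were also intronic for the most part. A site in an intron of ATG10, an autophagy gene, had folds of 5.69 and 7.32. The site nearest LINC00331, between genes, had 6.10 and 6.47. In TANC1 the folds were 5.89 and 6.15, and within OPCML they were 6.0 and 5.83. Unlike these, the site in the intron of XKR4, a gene of a scramblase family, was wide at 752 bp, with folds of 5.54 and 6.26. AFF1, a component of the super elongation complex, held a site with folds of 5.37 and 6.10, and ZNF217, a zinc finger gene amplified in several carcinomas, one with 5.55 and 5.87 that lay 3949 bp from its TSS and 2987 bp from a DMSO peak.

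The promoter sites ranked lower, with a median mean percentile of 25.6 (6.50 to 58.4) against 35.6 (0.0300 to 80.1) for the other sites. Their summit windows had a median GC content of 65.7%, against 50.7% at the other sites. The highest was 657 bp from a TSS of IKZF5, an Ikaros family zinc finger gene, and also within 1 kb of a TSS of ACADSB, a mitochondrial acyl-CoA dehydrogenase gene. Its folds were 5.57 and 5.35, and its E-box is printed above. Next was a site 11 bp from the TSS of ENSG00000286787 and within 1 kb of PSMF1, a proteasome inhibitor gene, with folds of 5.37 and 5.41. The site shared by ENSG00000258539 and EEF1AKMT2, a lysine methyltransferase gene for elongation factor EEF1A, had folds of 5.55 and 5.20.

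Further down were sites at ZPR1, a zinc finger gene, with folds of 5.23 and 5.12, at the long noncoding RNA gene ENSG00000286748 with 4.76 and 4.60, and at FAM149A with 3.88 and 5.25. CFAP300, a gene for assembly of motile cilia, had a site 6 bp from its TSS with folds of 4.11 and 4.88, and TRMU, a mitochondrial tRNA-modifying enzyme gene, one at 25 bp with 4.09 and 4.84. Of the last 2 in the group, the site at ORC4, a subunit of the origin recognition complex, and MBD5 was stronger in list 1 (fold 5.37, percentile 60.6) than in list 3 (3.52, percentile 10.7). The site at UNC5C, a netrin receptor gene of axon guidance, split further, with a fold of 5.91 in list 1 (percentile 69.1) and 2.68 in list 3 (percentile 1.08), and its nearest DMSO peak was 869 bp away.

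In total, 44 genes had a compound-only site within 1 kb of a TSS, 36 of them protein-coding, which is 0.113% of the 38807 genes annotated. Of the 44, 17 also had an N-MYC peak within 1 kb of a TSS in a DMSO list, among them ACTN1, BVES, CPLX2, DPYSL3, DUSP10, FAM149A, UNC5C and ZMYND8. That DMSO peak was not always at the same start site: the nearest one lay 195 bp from the promoter site of CPLX2 and 869 bp from that of UNC5C, but 42354 bp from that of DPYSL3. The share of all annotated genes with a DMSO peak within 1 kb of a TSS was not counted. Nothing is therefore read from the 17 of 44.

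Few genes of the pathway lists could be hit by so few sites. None of 79 cytosolic ribosomal protein genes had a compound-only site within 1 kb of a TSS, whereas 46.8% had a region shared with DMSO and 20.3% a DMSO-only site. Over all annotated genes these shares were 19.1% and 1.28%. Likewise, none was found among 42 translation factor genes (81.0% with a shared region), 52 DNA repair genes (73.1%), 25 genes of p53 and its targets (68.0%), 13 genes of the MYC, MAX and MXD network (69.2%), 20 adrenergic transcription factor genes (35.0%), 18 receptor and catecholamine synthesis genes (22.2%), 29 immediate early and stress genes (58.6%) and 31 synaptic vesicle and neuronal channel genes (32.3%), a list that does not hold CPLX2. ORC4 was the 1 gene found among 47 of the cell cycle and replication, and UNC5C the 1 among 46 of axon guidance. At 0.113% of all genes, a list of this size would have few hits, so these counts say little about any 1 list.

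Of 20 genes of WDR5 and the MLL/SET1 complexes none had a site within 1 kb, but KMT2C, which encodes a catalytic subunit of such a complex, was the gene nearest to a site 1943 bp from its TSS, with folds of 4.80 and 4.15 and a DMSO peak 2417 bp away. One site, with folds of 3.79 and 3.30, lay in an exon of PVT1, the long noncoding RNA gene next to MYC, 110 bp from a TSS of PVT1 and 311517 bp from the nearest coding TSS, that of MYC.

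None of the 102 sites was listed in the second compound N-MYC library, which allows a share of up to 2.94% of sites by the limit of 3 counts. That list took no part in choosing them. The same list held 33.4% of the regions shared with DMSO (32.4 to 34.4%). Its 2964 peaks followed strength: of the shared regions below the 25th percentile it listed 7.29%, between the 25th and the 50th 14.2% and between the 50th and the 75th 30.5%, and of the compound-only sites 0 of 37, 0 of 39 and 0 of 24 in the same bands, where 0 allows up to 8.11%, 7.69% and 12.5% by the same limit. Within these bands the compound-only sites still had lower −log10 q than the shared regions, as given above, so the shares are not at equal strength.

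The number of DMSO lists that held a region went with 4 of the 5 features measured. Regions of both compound lists were held by 0 DMSO lists at 102 places, by 1 at 521, by 2 at 1651 and by all 3 at 5943. Over these classes the share within 1 kb of a TSS was 33.3%, 51.1%, 62.7% and 73.2%, the share in the second compound list 0%, 1.54%, 3.27% and 44.6%, and the share with an IMR-32 N-MYC peak 19.6%, 31.9%, 44.1% and 74.7%. A WDR5 peak in a DMSO library was present at 7.84%, 19.0%, 27.6% and 44.8%. CACGTG behaved otherwise in the first 3 classes, at 18.6%, 17.1% and 20.6%, and was at 37.8% in the last. So in those 4 features the compound-only sites formed the low end of a graded series. Regions held by a single DMSO list, most of them by list 1 (366 of 521), stood next to them. The classes are set by DMSO lists that the rule used. Strength also differed between them, with a median of the mean percentile of 32.8, 33.0, 40.5 and 64.9, and its part in these shares was not tested.

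**Figure D3:**
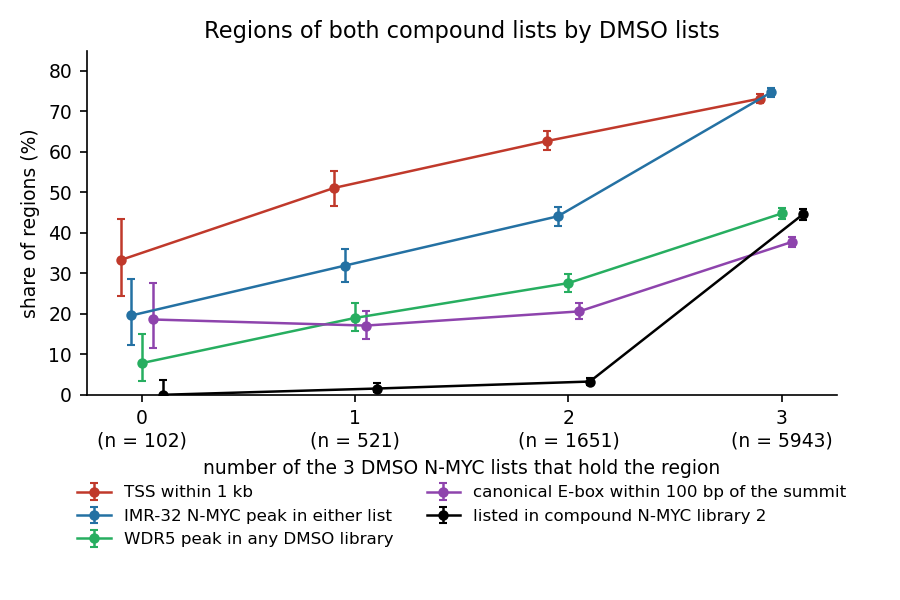
Share of regions of both compound lists (%, y axis) that had each of 5 features, by the number of DMSO N-MYC lists that held the region (x axis), with exact 95% intervals as bars. The class at 0 holds the compound-only sites; 4 of the features rise from there to the class of 3 lists, and the E-box share stays between 17.1% and 20.6% up to 2 lists.

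IMR-32 cells, which saw no compound, offered N-MYC lists that the rule did not use. The first IMR-32 list held 14 of the 102 sites (13.7%, interval 7.71 to 22%) and the second 10 (9.80%, 4.80 to 17.3%), against 60.5% and 44.6% of the regions shared with DMSO and 19.1% and 13.9% of the DMSO-only sites. In either list were 20 sites (19.6%, 12.4 to 28.6%), against 65.7% of shared regions, and in both 4. Within the bands of strength the shares in either list were 24.3%, 17.9% and 12.5% for compound-only sites and 44.2%, 51.7% and 69.5% for shared regions. Of the 20, 8 were within 1 kb of a TSS and 2 held CACGTG. The IMR-32 libraries were read as pairs on another instrument than the CHP-134 libraries, so line and sequencing run cannot be told apart.

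The IMR-32 peaks at these sites were mostly weak in their own lists, with a median percentile of 18.8 (0.744 to 84.8) over 24 peaks, and their summits lay a median of 76.5 bp from those in CHP-134. The highest in both lists was the site between HS2ST1, a heparan sulfate sulfotransferase gene, and SELENOF, with IMR-32 folds of 8.24 and 6.03 (percentiles 84.8 and 50.5) beside compound folds of 4.46 and 4.08. At ENSG00000286787 and PSMF1 the IMR-32 folds were 6.04 and 5.78. In the intron of AIG1, with ADAT2 as the nearest gene 170869 bp away, they were 3.96 and 4.93. The site in TCF12 was listed once, with a fold of 3.99.

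The fourth site of both IMR-32 lists was also the lowest in rank of all 102. It lay on chromosome 2 nearest ENSG00000235127, 1160209 bp from a TSS of MYCN, and its folds were low everywhere, 1.65 and 1.56 in the compound lists and 1.86 and 1.94 in IMR-32, while its −log10 q was 9.84 and 5.98, and 22.6 and 15.2. A fold this low at a q this small was seen in both lines. The site next to it in rank, in GBP7 on chromosome 1, also had low folds in the compound lists, 1.68 and 1.92. Its −log10 q was 6.50 and 8.65, and it had no IMR-32 N-MYC peak. The copy number of these stretches was not tested in either line.

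WDR5 was rarely listed at compound-only sites. The 3 DMSO WDR5 libraries listed 6, 3 and 2 of the 102 (5.88%, 2.94% and 1.96%), and the 3 compound WDR5 libraries listed 7, 0 and 1 (6.86%, 0% and 0.980%). The groups overlap, and the first library of each treatment, which had the longest list, had the most. Mean shares were 3.59% ± 2.04 (SD, n = 3) under DMSO and 2.61% ± 3.71 (SD, n = 3) under the compound, a difference of -0.980 percentage points (exact two-sided permutation test, p = 0.700, where 3 libraries against 3 cannot go below 0.1). Without the second compound WDR5 library, with its 15 peaks, the difference was 0.327 points in the other direction. In any DMSO library 7.84% of the sites had a WDR5 peak (interval 3.45 to 14.9%), against 39.6% of the regions shared with DMSO and 18.1% of the DMSO-only sites. The 3 sets also differed in their share within 1 kb of a TSS (33.3%, 69.7% and 61.9%). The part of position and of strength in these WDR5 shares was not tested.

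**Figure D4:**
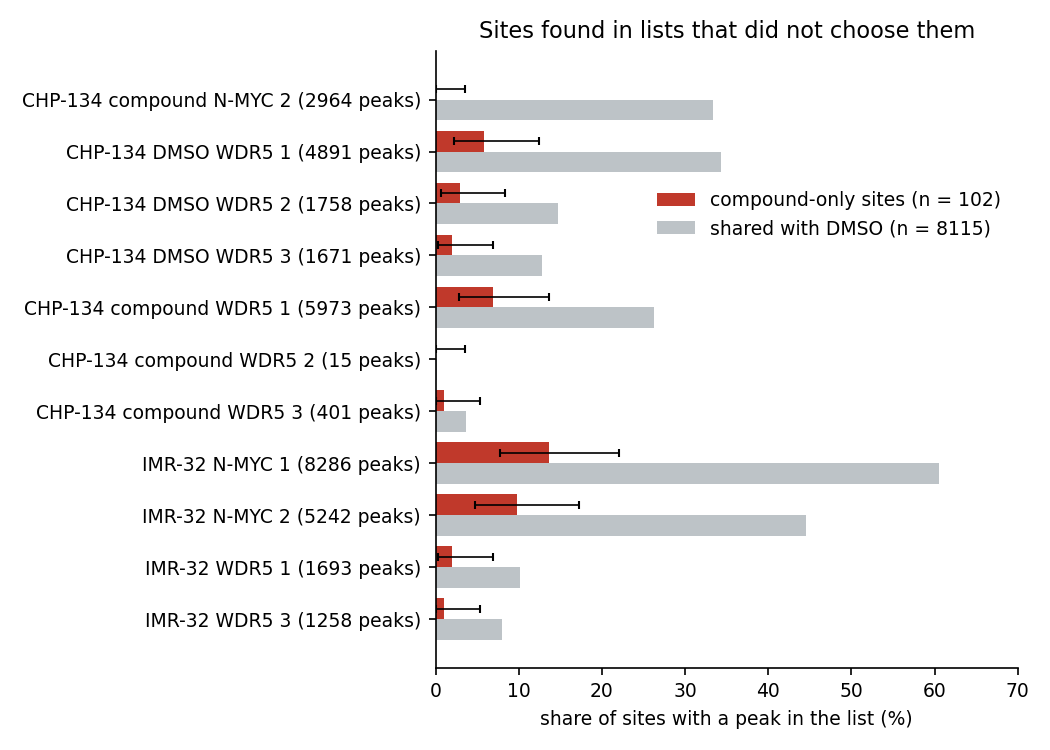
Share of compound-only sites (red, with exact 95% intervals, n = 102) and of regions shared with DMSO (grey, n = 8115) that had a peak in each list the rule did not use, 1 pair of bars per library, with the number of peaks of the list in brackets. Red bars reach 13.7% at most, in the first IMR-32 N-MYC list, and the second compound N-MYC list has none.

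By site, 14 of the 102 had a WDR5 peak in some CHP-134 library, 6 under DMSO alone, 6 under the compound alone and 2 under both, and 7 of the 14 were within 1 kb of a TSS.

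The 11 WDR5 peaks of DMSO libraries at these sites had a median percentile of 55.6 in their own lists, and the 8 of compound libraries one of 46.2. Among the sites with both, UNC5C had a WDR5 fold of 4.68 in DMSO library 1 and 4.52 in compound library 1, and DUSP10 had 4.59 and 4.20 in DMSO libraries 1 and 2 and 3.59 in compound library 1. Sites listed for WDR5 under the compound alone included ZPR1, with a fold of 4.43 and its WDR5 summit 16 bp from the N-MYC summit, MAN1A1, a Golgi mannosidase gene, with 5.08, CXCR4, a chemokine receptor gene, with 3.83, and EYA2, a transcriptional coactivator gene of development, with 3.50. Those under DMSO alone included GLI3, a Hedgehog pathway transcription factor gene, with 3.50, PEX5L with 5.16, SLC49A4 with 3.94, the site in CPLX2 farther from its start with 4.11, and DPYSL3, a gene of growth cone collapse signalling, with 3.14. In IMR-32, 2 sites had a WDR5 peak, and the one nearest ENSG00000259058 had it in 1 list, with a fold of 4.89.

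The count of compound-only sites rests on single libraries. Without DMSO library 1, the longest list, the rule gave 468 sites, and without DMSO library 3 it gave 227. With the second compound library in place of the first it gave 1 site, and in place of the third 3 sites. When every N-MYC list that the rule used was cut to the same number of strongest peaks by q, the rule gave 140 sites.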

How the data were processed

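ChIP-seq peak lists of 16 libraries were used (CHP-134: N-MYC and WDR5, DMSO and compound, 3 libraries each; IMR-32: N-MYC and WDR5, 2 each). The authors used Cutadapt for trimming, Bowtie2 for alignment to hg19 and MACS2 for peak calls in each library, at a q-value of 0.05; versions and control library are not given in the sources used here. The deposited lists hold the fold (a linear ratio over local background), −log10 p and q, a score made from q, which was not used, and the summit offset. CHP-134 libraries were single-end and IMR-32 paired-end. Depth is unknown. The IgG libraries were not analysed here.

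Regions were merged at an overlap of 1 bp, and groups follow the sample titles. Percentiles are ranks of fold within a list; a site's summit is that of its peak with the higher −log10 q. The nearest TSS was measured from the middle of a site to 84638 TSSs of GENCODE v44 mapped to GRCh37, the build of the lists. Promoter sites have a TSS within 1 kb. Named are the 10 highest-ranked promoter sites and the 10 highest other sites by mean percentile, sites in both IMR-32 lists, genes of the lists with a site within 1 kb, and, chosen after their values were seen, sites with WDR5, sites at the edge of the rule, KMT2C, PVT1 and printed E-box sites outside the 10 highest. Members, lists and motifs were chosen with earlier results of these data known. Intervals are exact (Clopper-Pearson, 95%) and cover counting error only. Python 3.11.15, scipy 1.17.1 and pysam 0.24.0 were used; the rule and motif search were tested on simulated data. Alternatives changed the overlap, the DMSO exclusion, q, list length, libraries, TSS distance, E-box window and summit. Results of a few genes and of 1 site are not reported here.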

Additional observations from a re-analysis of the deposited data

How the results depend on the processing

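The number of sites stayed between 84 and 140 in 6 alternatives (sharing of 50% of the shorter peak, a 500 bp gap to DMSO peaks, −log10 q of at least 2 or 3, equal list lengths, or any 2 compound lists), and went to 616 when DMSO regions needed 2 lists. Leaving out 1 library gave 1 to 468 sites. The promoter share moved to 48.2% with DMSO regions of 2 lists and 46.4% at equal list lengths (0% to 50.6% leaving out 1 library), and the IMR-32 share to 29.7%, 29.3% and, asking for both IMR-32 lists, 3.92% (9.80% to 100%). The promoter share of 0% and the IMR-32 share of 100% rest on 1 site. The E-box share ranged from 0% to 33.3% leaving out 1 library, where the lowest and highest rest on 1 and 3 sites, and from 14.7% to 22.6% otherwise. The share in the second compound library was at most 1.3%. Ranked by q, the median percentile was 25 in place of 32.8. The WDR5 difference turned to 0.673 and 1.59 points at −log10 q of at least 2 and 3, and ranged from -3.10 to 0.327 points leaving out 1 library, with 0.163 and 0.327 as the values that turned; p was 0.200 or above in each. With the replicate block it was -0.980 points (exact permutation within pairs, p = 0.750, smallest possible 0.250). Same-numbered WDR5 libraries shared only a number: their deviations over 10000 regions correlated at -0.307, -0.199 and -0.113. The cause of these changes was not tested.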
